A study of Mus musculus with 18 samples.

Results

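The genes described here are the expressed mouse Zfp genes, the protein-coding genes whose symbol is Zfp followed by 1 to 3 digits and whose mean level over all 18 libraries was at least 3 TPM (a length-corrected level scaled to the same total in every library). There were 235 of them among 365 protein-coding genes with such a symbol and 47311 genes in all. They were chosen by level, so their levels are a description and carry no test. The rule names no difference between groups, but a gene that is low in some groups can pass it through its level in others. These can be the groups of the other stage or the depleted groups. Just inside the limit were Zfp820 at 3.02 TPM, Zfp54 at 3.09 TPM and Zfp775 at 3.19 TPM, and just outside it were Zfp82 at 2.97 TPM, Zfp2 at 2.96 TPM and Zfp287 at 2.91 TPM.

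The libraries hold polyadenylated RNA of C2C12, a line of mouse muscle cells kept as dividing myoblasts or let fuse into multinucleated myotubes. Myotubes and myoblasts each received si-Setd2#1 (siRNA 1), si-Setd2#2 (siRNA 2) or the control siRNA si-Ctrl, in 3 biological replicates per group, which gives 6 groups and 18 libraries. All cells had been stretched just before their RNA was taken, so stretch is common to every group, and no unstretched group was used here. The labels name no other genotype or agent. C2C12 is 1 cell line, and the labels do not say whether replicates came from separate cultures, so p-values measure the spread between these samples, which may be technical. Replicates were not equally far apart. Library names carry a prefix whose meaning the labels leave out, and 3 pairs of replicates with a shared prefix differed by a mean chi-square per gene of 2.51 (siRNA 1 myoblasts 1 and 2), 2.56 (control myoblasts 2 and 3) and 3.36 (siRNA 2 myotubes 2 and 3). The other 3 pairs with a shared prefix differed by 15.1 to 28.7, and pairs with different prefixes by at least 9.81. If the close pairs share a source, p-values are too small. The fits behind the calls leave the prefix out, and counts with it are given where they moved by over 1.5 times.

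Most Zfp genes encode C2H2 zinc finger proteins, in which a pair of cysteines and a pair of histidines hold a zinc ion and a string of such fingers reads DNA. Many also carry a KRAB box, which recruits the corepressor Trim28 (KAP1) and, through it, the histone H3 lysine 9 methyltransferase Setdb1, heterochromatin proteins and histone deacetylases; such proteins are best known for silencing transposable elements and for keeping imprints. Some Zfp symbols belong to other protein types, among them Zfp36, a CCCH finger protein that brings AU-rich messenger RNAs to decay. Setd2 encodes the enzyme that trimethylates histone H3 lysine 36 along transcribed genes, and in human cells the 3′ ends of clustered zinc finger genes are known to hold this mark together with H3 lysine 9 trimethylation.

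The libraries held 43544308 to 66615342 estimated counts. The Zfp genes took 0.628% to 0.707% of them. Setd2 itself was at 38.9 to 58.8 CPM (counts scaled to a common library total, with TMM factors) in siRNA 1 myotubes and 34.4 to 38.9 CPM in siRNA 2 myotubes, against 101 to 108 CPM in control myotubes, and at 34.4 to 41.5 CPM and 39.3 to 45 CPM in siRNA 1 and siRNA 2 myoblasts, against 97.7 to 118 CPM in control myoblasts. The summed level of 6 myotube genes was 13100 to 16500 CPM in all myotube libraries and 31.4 to 131 CPM in all myoblast libraries, so the stage labels hold. Within myotubes it was 15600 to 15700 CPM with siRNA 1 and 14600 to 16500 CPM with siRNA 2, against 13100 to 14300 CPM in controls. The summed level of 3 cell cycle genes was 190 to 203 CPM in siRNA 1 myotubes and 202 to 216 CPM in siRNA 2 myotubes, against 283 to 303 CPM in control myotubes, and 1850 to 1930 CPM in siRNA 1 myoblasts and 2020 to 2200 CPM in siRNA 2 myoblasts, against 1880 to 1900 CPM in control myoblasts. A list of 4 genes fixed as myoblast markers, mostly Des, did not mark that stage: it summed to 3850 to 4430 CPM in the myotube libraries and 1140 to 1750 CPM in the myoblast libraries. Within myoblasts it was at 1500 to 1570 CPM with siRNA 1 and 1640 to 1750 CPM with siRNA 2, against 1140 to 1330 CPM in controls. The part of these shifts in the differences below was not tested, and in bulk RNA fewer cells of a kind and less RNA per cell cannot be told apart. Sums of marker lists for adipocytes, leukocytes, endothelium and glia were at most 2.3 CPM in any library, with Adgre1 and Cidec at 0 in all 18. A fibroblast list of 4 genes, mostly Dcn, was at 130 to 139 CPM in siRNA 1 myotubes and 84.2 to 99.4 CPM in siRNA 2 myotubes, against 96.1 to 102 CPM in control myotubes, and at 10 to 15.2 CPM in the myoblast libraries; its part was not tested. Ribosomal RNA-like sequence took 3.56% to 3.91% of counts in siRNA 1 myoblasts and 1.46% to 4.1% in siRNA 2 myoblasts, against 1.2% to 1.36% in control myoblasts, and its part was not tested. The column of the third siRNA 2 myoblast library is named SETD3 where its label has SETD2, and the name of the third control myotube library holds NT_2 where the other controls hold NT_1, so leading counts are also given without them.

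Sequences of a few members are printed here, and the calls below do not rest on them. A pair of alternative exons of Zfp207, an abundant member whose transcript mix differed between the stages, is shown first (it was chosen after its values were seen), from the GENCODE M21 transcripts of GRCm38, with the exon in capitals and 15 bases of the neighbouring exons on each side in lower case. The exon of 93 bases lies at chr11:80393084-80393176 on the plus strand, and the exon of 48 bases lies at chr11:80389774-80389821 on the plus strand. Both are coding and their lengths are multiples of 3 bases, so each can be used or skipped without a change of reading frame.
Zfp207 exon of 93 bases: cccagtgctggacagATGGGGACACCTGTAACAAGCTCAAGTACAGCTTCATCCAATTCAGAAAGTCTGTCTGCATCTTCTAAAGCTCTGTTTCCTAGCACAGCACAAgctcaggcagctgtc
Zfp207 exon of 48 bases: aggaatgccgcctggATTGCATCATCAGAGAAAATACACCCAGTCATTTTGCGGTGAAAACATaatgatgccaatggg

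The promoters of Zfp651, Zfp106 and Zfp346 are shown because these 3 members were called higher both on differentiation and with each Setd2 siRNA in each stage. They are RefSeq promoter windows on GRCm38.p6, from 250 bases before the gene's start to 50 bases after it, written 5′ to 3′ on the gene's strand. Capitals mark CAGCTG, an E-box of the kind that MyoD and myogenin, the muscle-determining factors, are known to bind. The motif is its own reverse complement, so a search of 1 strand covers both. Zfp651 lies at chr9:121759783-121760082 on the plus strand, Zfp106 at chr2:120563810-120564109 on the minus strand and Zfp346 at chr13:55105072-55105371 on the plus strand, where the first of its 2 windows is printed.
Zfp651: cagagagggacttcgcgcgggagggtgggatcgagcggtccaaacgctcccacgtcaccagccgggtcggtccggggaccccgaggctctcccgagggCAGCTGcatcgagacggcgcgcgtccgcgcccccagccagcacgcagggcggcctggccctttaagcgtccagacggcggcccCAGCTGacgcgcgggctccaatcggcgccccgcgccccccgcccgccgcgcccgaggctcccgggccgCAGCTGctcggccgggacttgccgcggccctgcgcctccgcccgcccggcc
Zfp106: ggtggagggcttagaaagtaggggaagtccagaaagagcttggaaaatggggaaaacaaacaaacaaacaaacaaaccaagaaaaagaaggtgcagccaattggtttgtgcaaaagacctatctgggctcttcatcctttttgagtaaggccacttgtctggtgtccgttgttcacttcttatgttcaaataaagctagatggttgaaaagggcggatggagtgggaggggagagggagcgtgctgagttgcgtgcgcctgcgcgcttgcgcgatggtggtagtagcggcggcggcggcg
Zfp346: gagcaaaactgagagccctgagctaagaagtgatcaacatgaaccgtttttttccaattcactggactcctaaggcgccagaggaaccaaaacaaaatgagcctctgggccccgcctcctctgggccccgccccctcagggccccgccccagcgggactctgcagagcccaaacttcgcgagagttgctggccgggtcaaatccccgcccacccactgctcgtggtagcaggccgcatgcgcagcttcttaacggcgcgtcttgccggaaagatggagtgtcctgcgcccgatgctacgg

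The Zfp651 window holds 3 copies of CAGCTG, and the Zfp106 and Zfp346 windows hold 0. Of all 32851 windows in the promoter table, 5355 (16.3%) hold at least 1 copy and 68 (0.207%) hold 3 or more. Windows were found for 194 of the 235 members. Of their 241 windows, 48 (19.9%) hold the motif, and 2 of them hold 3 or more, those of Zfp651 and Zfp692. A match is a description of these letters and not a shown binding site.

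The members were mostly expressed at a low level. Their median mean level was 10.3 TPM, 119 were at 10 TPM or more, and 8 were at 50 TPM or more. The highest was Zfp106, an RNA-binding protein known to be needed for the upkeep of muscle and its nerve supply in mice, at 226 TPM. Zfp207 (BuGZ), which binds microtubules and the kinetochore, followed at 168 TPM. Below them were Zfp91, a regulator of non-canonical NF-kappaB signalling, at 82.6 TPM, Zfp706 at 67.0 TPM, the large ribosomal subunit maturation factor Zfp622 at 66.8 TPM and the double-stranded RNA-binding protein Zfp346 (JAZ) at 64.3 TPM. Zfp703, a transcriptional corepressor, and the nucleolar protein Zfp330 closed the group at 52.2 and 51.0 TPM.

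The predicted proteins divided the members into a KRAB group and a remainder. A profile of the KRAB box matched 127 members, and 108 had no match; the profile was built from these proteins, so a divergent or unannotated box can be missed. The C2H2 finger pattern occurred a median of 10 times per protein, 12 in the KRAB group and 7.5 in the rest, with a range of 0 to 37. It was absent from 6 members, which were Zfp36, Zfp330, Zfp365, Zfp503, Zfp703 and Zfp935. The median level was 7.47 TPM in the KRAB group and 15.22 TPM in the rest. Members lay on 20 chromosomes, with 55 on chromosome 7 and 34 on chromosome 17. Near-identical neighbours can share reads, and no source used here gives the strandedness of the libraries, so values of clustered, overlapping or antisense genes are uncertain.

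The first comparison, between the control cells of each stage, asks which Zfp genes change when C2C12 cells differentiate. In control myotubes 98 of the 235 members were called higher and 85 lower at an adjusted p under 0.05 (edgeR's quasi-likelihood test, Benjamini-Hochberg adjustment over 16930 genes). These are 41.7% and 36.2% of the members, beside 39.4% and 38.1% of all genes tested. Of the protein-coding genes at 3 TPM or more, 40.9% rose and 45.9% fell. These genes share the lower limit of the members but were not matched to them in level, here and below. The share of rises was near that of these expressed genes and the share of falls was lower. The median log2 fold change was 0.06, against 0.00 over all genes. A 2-fold change or more was reached by 14 rises and 10 falls, for which the share of all genes was not counted. The KRAB group and the rest leaned opposite ways. Of 127 members with a KRAB box, 64 (50.4%) rose and 33 (26.0%) fell, with a median of 0.19, and of 108 without one, 34 (31.5%) rose and 52 (48.1%) fell, with a median of -0.10. The difference between these groups was not tested.

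**Figure D1:**
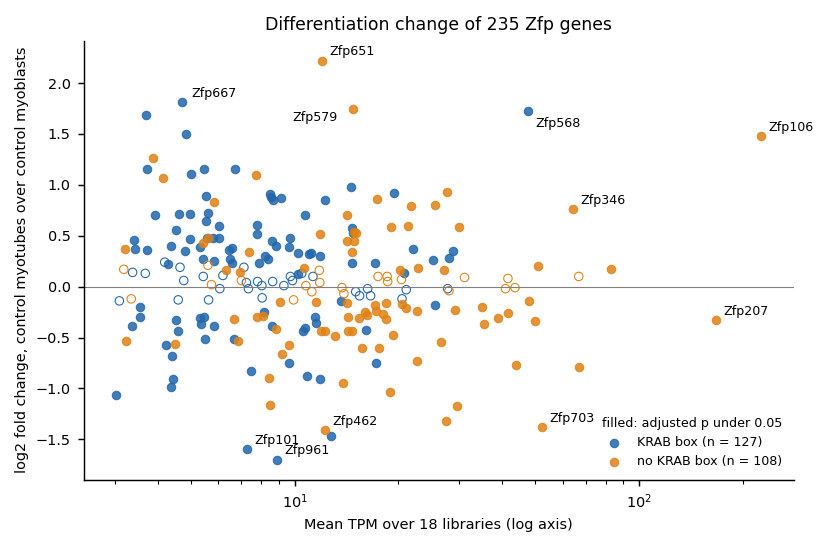
Each point is 1 of 235 Zfp genes, with its mean level over 18 libraries (TPM, log axis) and its log2 fold change in control myotubes over control myoblasts (n = 3 each). Blue points are the 127 genes with a KRAB box and orange points the 108 without, and filled points were called; Zfp651 stands highest at 2.22 and Zfp961 lowest at -1.70.

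Zfp651 (Zbtb47), a zinc finger protein with a BTB domain, had the largest rise. It was at 60.6, 60.7 and 60.6 CPM in control myotubes, against 12.6, 14 and 12.5 CPM in control myoblasts, a log2 fold change of 2.22 ± 0.06 (SE, adjusted p = 1.45e-17, edgeR). The lowest myotube library was thus far above the highest myoblast library. Zfp568, a KRAB protein known to repress the placental transcript of Igf2 in mouse embryos, was at 216, 221 and 204 CPM in control myotubes, against 63.8, 64.4 and 64.2 CPM in control myoblasts (1.73 ± 0.04, adjusted p = 2.01e-18, edgeR). With a mean of 47.5 TPM it was also the most abundant KRAB member. Zfp106 stood at 1070, 1100 and 967 CPM in control myotubes, against 369, 378 and 375 CPM in control myoblasts (1.48 ± 0.04, adjusted p = 2.96e-17, edgeR), so the most abundant Zfp gene was also among the largest rises. The other leading rises were Zfp667 at 1.81, Zfp579 at 1.75, Zfp30 at 1.69, Zfp810 at 1.5 and Zfp420 at 1.26 on the log2 scale, each with groups that did not overlap. Of these, Zfp667, Zfp30, Zfp810 and Zfp420 were at 1.75 to 3.23 TPM in control myoblasts and 5.3 to 8.42 TPM in control myotubes, so they passed the limit through their myotube levels and the direction of their change is in part set by the rule.

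The largest falls were KRAB genes as well as genes without a box. Zfp961 was at 3.70, 4.49 and 4.70 CPM in control myotubes, against 13.6, 15.5 and 13 CPM in control myoblasts (-1.70 ± 0.09, adjusted p = 6.05e-13, edgeR). Zfp703 was at 47, 47 and 52 CPM in control myotubes, against 130, 125 and 125 CPM in control myoblasts (-1.38 ± 0.07, adjusted p = 1.35e-12, edgeR). Zfp462, a nuclear protein with 34 finger patterns, was at 30, 31.6 and 27.2 CPM in control myotubes, against 71.5, 80.5 and 84.5 CPM in control myoblasts (-1.41 ± 0.08, adjusted p = 5.41e-11, edgeR). For each of the 3 genes every myotube library was below every myoblast library. Zfp101 fell by 1.60, Zfp7 by 1.47, Zfp365 by 1.32, Zfp367 by 1.17 and Zfp41 by 1.16 on the log2 scale. All 16 rises and falls named here stayed called, with the same sign, when any 1 library was left out and on the log2(TPM + 1) scale.

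Of 23 members with known roles in transcription and chromatin, 13 were lower and 3 higher in control myotubes, with a median log2 fold change of -0.16. These are 56.5% and 13% of the list, beside 45.9% and 40.9% of the protein-coding genes at 3 TPM or more and 38.1% and 39.4% of all genes, so the list held fewer rises and more falls than either background. The falls included Zfp148, which binds G-rich promoter sequences, at -0.23 ± 0.03. Zfp451, a SUMO ligase in human cells, was at -0.24 ± 0.06 and lost its call on the log2(TPM + 1) scale (adjusted p = 0.0604, limma). The pluripotency factor Zfp281 was at 53.8, 55.4 and 53.3 CPM in control myotubes, against 50.7, 52.9 and 51.6 CPM in control myoblasts, and did not pass the test although the groups did not overlap (0.07 ± 0.03, adjusted p = 0.08, edgeR). Of 9 RNA-binding or ribosome-associated members, 3 were higher and 4 lower (33.3% and 44.4%), near the same shares. Besides Zfp106, the rises were Zfp346 at 0.76 ± 0.05 and Zfp330 at 0.20 ± 0.05. The falls were Zfp326, a subunit of the complex that couples splicing to elongating RNA polymerase II, at -0.77 ± 0.05, Zfp207 at -0.33 ± 0.05, the ribosome biogenesis factor Zfp593 at -0.30 ± 0.07 and the collided-ribosome ubiquitin ligase Zfp598 at -0.20 ± 0.04.

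Most genes of the machinery that KRAB proteins recruit were lower in control myotubes. Of 30 KRAB corepressor and heterochromatin genes, 20 were lower and 7 higher in control myotubes (66.7% and 23.3%, beside 45.9% and 40.9% of the protein-coding genes at 3 TPM or more), with a median log2 fold change of -0.39. Trim28, the KRAB corepressor itself, had a mean of 150 CPM in control myotubes, against 337 CPM in control myoblasts (-1.17 ± 0.04, adjusted p = 1.68e-15, edgeR). The H3 lysine 9 methyltransferases Suv39h1 and Suv39h2 fell by 1.77 and 2.41, the maintenance DNA methyltransferase Dnmt1 by 1.76 and its partner Uhrf1 by 2.64 on the log2 scale. Setdb1 fell by 0.40. The sum of the 3 cell cycle genes was 283 to 303 CPM in control myotubes and 1880 to 1900 CPM in control myoblasts, and its part in these falls was not tested. The rises included the heterochromatin protein Cbx5 at 0.56 and the NuRD remodeller Chd3 at 0.82. Of 15 mRNA decay genes looked at beside Zfp36, 11 were lower and 3 higher (73.3% and 20%). Zfp36 was at 16.9, 15.6 and 17.9 CPM in control myotubes, against 14.2, 16.5 and 14.5 CPM in control myoblasts, with overlapping groups and no call (adjusted p = 0.0761, edgeR). Its relatives outside the Zfp symbol rule went opposite ways, Zfp36l1 at 2.79 and Zfp36l2 at -2.08.

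Transcript mixtures also differed between the stages. Zfp207 as a whole fell by 0.33, but the share of its spanning transcripts that include the 93-base exon was 47.9%, 47.5% and 43.2% in control myotubes, against 17.9%, 15.2% and 13.6% in control myoblasts. The 48-base exon was included in 79.1%, 81.1% and 82.1% in control myotubes, against 98.2%, 95.5% and 95.5% in control myoblasts. The groups did not overlap for either exon, and with 3 against 3 libraries an exact two-sided permutation test cannot go below p = 0.1. By transcript, Zfp207-201, which lacks the 93-base exon, averaged 72.5 TPM in control myotubes and 144 TPM in control myoblasts. Zfp207-202, which has both exons, averaged 33.6 TPM in control myotubes and 14.4 TPM in control myoblasts. Zfp207-206, which has the 93-base exon and lacks the 48-base one, averaged 30.3 TPM in control myotubes and 6.74 TPM in control myoblasts. These are levels the authors' quantifier divided among transcripts that share most of their sequence, so they are estimates.

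**Figure D2:**
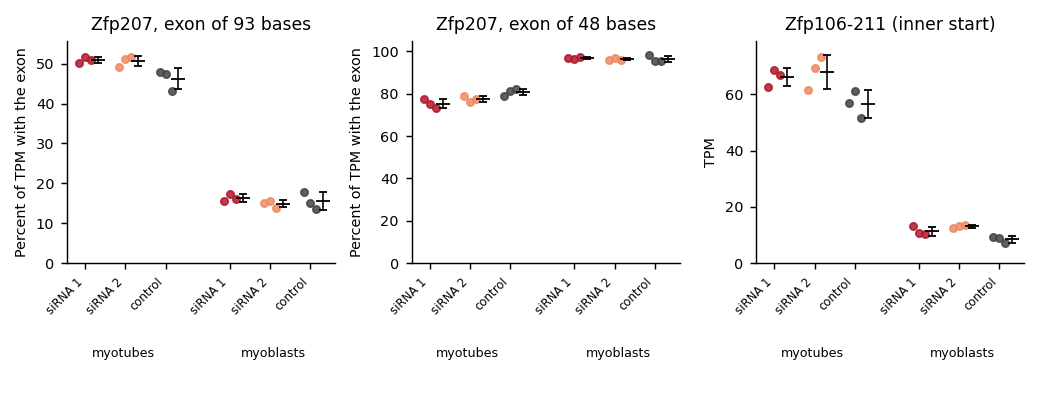
The first 2 panels give the percent of Zfp207 spanning transcript TPM that includes the 93-base or the 48-base exon, and the last gives the TPM of Zfp106-211, for each library (dots) with the mean and SD beside them (n = 3). In all myotube groups the 93-base exon lies between 43.2% and 51.6%, and in all myoblast groups between 13.6% and 17.9%.

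Depletion of Setd2 left this stage difference in place. The 93-base exon was included in 50.1%, 51.6% and 50.9% in siRNA 1 myotubes and 49.1%, 51.1% and 51.6% in siRNA 2 myotubes, so all 6 depleted libraries were above the 3 control myotubes. In myoblasts it was included in 15.7%, 17.4% and 16.0% with siRNA 1 and 15.2%, 15.7% and 13.9% with siRNA 2, which overlapped the controls. The 48-base exon was included in 77.3%, 75.3% and 73.4% in siRNA 1 myotubes and 78.9%, 75.9% and 77.4% in siRNA 2 myotubes, all below the 79.1%, 81.1% and 82.1% of control myotubes. In myoblasts its 95.8% to 97.5% in depleted libraries lay within the range of the controls. Zfp106 had a transcript that differed between the stages by more than the gene as a whole. Zfp106-211 begins at position 120539860 of chromosome 2 (minus strand, GRCm38), 23.9 kb inside the start of Zfp106-201 at 120563807. It was at 56.9, 61.2 and 51.5 TPM in control myotubes, against 9.27, 9.08 and 7.17 TPM in control myoblasts, and made up 18.7%, 20.4% and 17.9% of the gene's TPM in control myotubes, against 7.76%, 7.48% and 6.02% in control myoblasts. Its level was above every control of the stage in all 6 depleted libraries of either stage: 62.7, 68.7 and 66.9 TPM in siRNA 1 myotubes and 61.4, 69.4 and 73.1 TPM in siRNA 2 myotubes, and 13.2, 10.7 and 10.3 TPM in siRNA 1 myoblasts and 12.6, 13.1 and 13.5 TPM in siRNA 2 myoblasts. The share of Zfp106-211 in the gene's TPM was 18.7%, 21.1% and 19.2% in siRNA 1 myotubes and 18.5%, 20.5% and 20.6% in siRNA 2 myotubes. Each group overlapped the controls. In myoblasts the share was 10.3%, 7.88% and 7.74% with siRNA 1, which overlapped the controls. With siRNA 2 it was 10.2%, 9.92% and 10.1%, above all controls. The gene as a whole was also higher with each siRNA, as given below. Over all members, 51 had a single transcript, and the transcript with the largest mean share differed between control myotubes and control myoblasts in 16 of 235. In 9 of them the transcript leading in control myotubes had a higher share in every control myotube library than in every control myoblast library. Groups apart in the other direction were not counted, and neither was the share of all genes.

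Each Setd2 siRNA was then compared with the control within a stage, to ask how Zfp genes respond when Setd2 is depleted. The responses were small. Of the 235 members, 126 were called in at least 1 of the 4 comparisons and 109 in none, and no call reached a 2-fold change. All genes were not counted in these ways, so whether Zfp genes respond less than others is not shown by these numbers. The largest absolute log2 fold change among calls was 0.46 with siRNA 1 and 0.57 with siRNA 2 in myotubes, and 0.64 with siRNA 1 and 0.75 with siRNA 2 in myoblasts. The siRNA comparisons of a stage share their 3 control libraries, so their values are given side by side.

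In myotubes more members were called lower than higher. With siRNA 1, 7 members rose and 19 fell (2.98% and 8.09%), beside 11% and 9.57% of 16097 genes tested. With siRNA 2, 18 rose and 48 fell (7.66% and 20.4%), beside 15.8% and 16.4% of all genes. Of the protein-coding genes at 3 TPM or more, 14.1% rose and 12.2% fell with siRNA 1 and 19.1% rose and 21.6% fell with siRNA 2. Against these, falls of Zfp genes were fewer with siRNA 1 and near the same share with siRNA 2, and rises were fewer with each. The median log2 fold change was -0.06 with each siRNA, against 0.00 with siRNA 1 and -0.01 with siRNA 2 over all genes. On the log2(TPM + 1) scale the splits were 4 rises and 22 falls with siRNA 1 and 7 rises and 63 falls with siRNA 2, where the median of all genes stood at -0.05 and -0.08. Called the same way with each siRNA were 6 rises and 12 falls, beside 7.14% rising and 6.27% falling of all genes and 9.27% and 8.46% of the protein-coding genes at 3 TPM or more, and no member was called in opposite directions. Without the third control library (NT_2), siRNA 1 gave 6 rises and 9 falls and siRNA 2 gave 14 rises and 35 falls. The siRNA 1 count was the least settled, with 12 to 17 calls when any of control 1, 2 or 3, siRNA 1 library 2 or 3, or siRNA 2 library 2 or 3 was left out, and the siRNA 2 count was 43 without control 2 and 38 without siRNA 2 library 2.

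The falls in siRNA 2 myotubes were mostly KRAB genes. Among 127 members with a KRAB box 3 rose and 36 fell (28.3% falling, median -0.12), and among 108 without one 15 rose and 12 fell (11.1% falling, median 0.00). Beside these, 15.8% of all genes rose and 16.4% fell with siRNA 2, and 19.1% and 21.6% of the protein-coding genes at 3 TPM or more. With siRNA 1, 1 KRAB member rose and 10 fell (7.87% falling, median -0.09), and 6 without a box rose and 9 fell (8.33% falling, median -0.03). Each falling share was below the 9.57% of all genes and the 12.2% of the protein-coding genes at 3 TPM or more. Among the calls shared by the siRNAs, 0 KRAB members rose and 8 fell, and 6 members without a box rose and 4 fell. The shared falls were 6.3% of the KRAB members and 3.7% of the rest. Beside them, 6.27% of all genes and 8.46% of the protein-coding genes at 3 TPM or more fell with each siRNA. The shared KRAB falls were thus near the share of all genes. The number of KRAB falls with siRNA 2 was 45 on the log2(TPM + 1) scale, 19 without control 2, 24 without control 3, 23 without siRNA 1 library 2, 16 without siRNA 2 library 2 and 19 without siRNA 2 library 3. With siRNA 1 it ranged from 3 (without control 2, siRNA 1 library 2 or siRNA 1 library 3) to 16 (without siRNA 2 library 1), and the shared falls from 2 (without control 2) to 12. Of the 30 corepressor genes, 2 were higher and 10 lower with siRNA 1 and 3 were higher and 10 lower with siRNA 2 (33.3% lower with each, beside 12.2% and 21.6% of the protein-coding genes at 3 TPM or more), the siRNA 1 falls being 6 without control 2 or siRNA 1 library 2 and 3 without siRNA 1 library 3. Trim28 had a mean of 133 CPM with siRNA 1 and 130 CPM with siRNA 2, against 150 CPM in control myotubes (-0.17 ± 0.04, adjusted p = 0.00756, and -0.21 ± 0.04, adjusted p = 0.00116, edgeR). Uhrf1 was at -0.52 and -0.56, Hdac1 at -0.19 and -0.24 and Cbx1 at -0.21 and -0.29. The cell cycle sum was also lower in all 6 depleted myotube libraries than in the 3 controls, and its part was not tested.

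**Figure D3:**
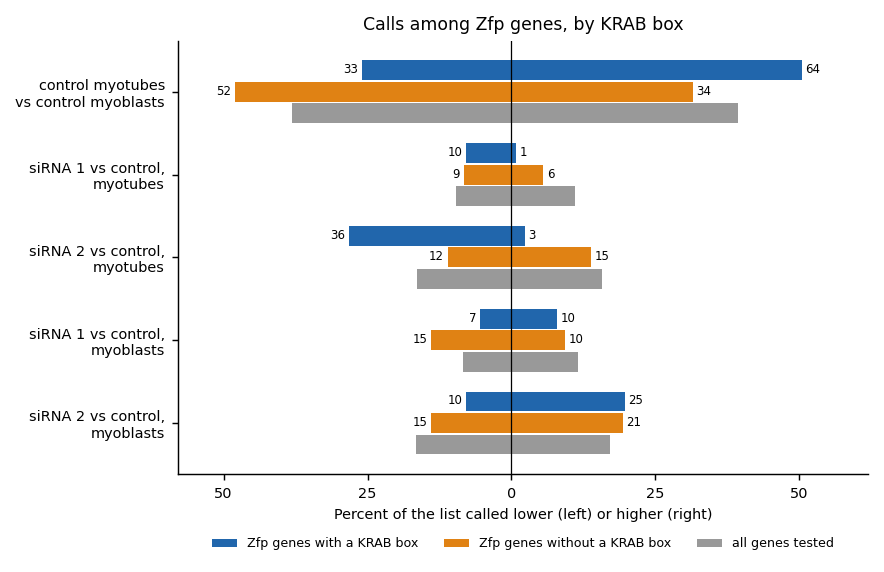
Bars give the percent of each list called lower (left) or higher (right) at an adjusted p under 0.05 (edgeR), for Zfp genes with a KRAB box (blue), without one (orange) and all genes tested (grey), with the number of Zfp genes at the bar ends. In siRNA 2 myotubes 36 of 127 KRAB genes fell and 3 rose, while on differentiation 64 rose and 33 fell.

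Of the members that fell with each siRNA in myotubes, Zfp9, a KRAB gene, was the clearest. It was at 13.5, 12.7 and 13 CPM with siRNA 1 and 10.8, 10.7 and 10.5 CPM with siRNA 2, against 16.8, 15.1 and 15.7 CPM in control myotubes. All 3 groups were apart, with siRNA 2 lowest (-0.27 ± 0.06, adjusted p = 0.00642, and -0.57 ± 0.06, adjusted p = 2.86e-05, edgeR). Zfp53, a KRAB gene of chromosome 17, was at 4, 4.90 and 4.68 CPM with siRNA 1 and 4.35, 3.69 and 4.32 CPM with siRNA 2, against 5.66, 6.02 and 5.69 CPM in control myotubes (-0.35 ± 0.10, adjusted p = 0.0262, and -0.50 ± 0.10, adjusted p = 0.00268, edgeR). All depleted libraries were below all controls, although the siRNA 1 call was lost without any 1 of control 1, 2 or 3 or siRNA 1 library 1 or 3 (adjusted p up to 0.0897, edgeR). Zfp334 was at -0.23 ± 0.05 and -0.17 ± 0.05 and Zfp516, an activator of the brown fat gene Ucp1 in mice, at -0.25 ± 0.05 and -0.19 ± 0.05. Their siRNA 1 calls held under all alternatives run, and their siRNA 2 calls were lost without siRNA 2 library 2 or control 2, that of Zfp334 also without siRNA 2 library 3 and that of Zfp516 also without control 1 (adjusted p up to 0.09 and 0.0744, edgeR). The remaining shared falls, Zfp65, Zfp148, Zfp157, Zfp260, Zfp408, Zfp426, Zfp617 and Zfp866, were between -0.10 and -0.27.

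The members that rose with each siRNA in myotubes all lacked a KRAB box. They were Zfp346, Zfp651, Zfp106, Zfp622, Zfp318 and Zfp3. Zfp622 was at 114, 119 and 114 CPM with siRNA 1 and 110, 112 and 107 CPM with siRNA 2, against 97.4, 104 and 97.1 CPM in control myotubes (0.22 ± 0.04, adjusted p = 0.00131, and 0.14 ± 0.04, adjusted p = 0.0106, edgeR). All depleted libraries were above all controls, and the siRNA 2 call was lost on the log2(TPM + 1) scale (adjusted p = 0.328, limma). Zfp3 was at 6.37, 6.14 and 6.05 CPM with siRNA 1 and 7.44, 7.01 and 6.77 CPM with siRNA 2, against 4.94, 5.13 and 5.38 CPM in control myotubes. Its siRNA 2 rise of 0.45 ± 0.08 held under all alternatives run (adjusted p = 0.000809, edgeR), and its siRNA 1 value of 0.27 ± 0.08 was not called without control 1, without control 2, without any 1 siRNA 1 library or on the log2(TPM + 1) scale (adjusted p up to 0.112, edgeR or limma). Zfp318, which regulates the alternative processing of immunoglobulin delta transcripts in B cells, was at 0.15 ± 0.03 and 0.18 ± 0.03, and neither call held on the log2(TPM + 1) scale (adjusted p = 0.568 and 0.356, limma).

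In myoblasts the balance was different. With siRNA 1, 20 members rose and 22 fell (8.51% and 9.36%), beside 11.6% and 8.44% of 15586 genes tested. With siRNA 2, 46 rose and 25 fell (19.6% and 10.6%), beside 17.1% and 16.5% of all genes. The shares among protein-coding genes at 3 TPM or more were 16.3% and 10.9% with siRNA 1 and 22.7% and 22% with siRNA 2, so the rises with siRNA 2 were near the background and the falls were fewer. Median log2 fold changes were -0.02 with siRNA 1 and 0.01 with siRNA 2. On the log2(TPM + 1) scale the splits were 8 rises and 34 falls with siRNA 1 and 24 rises and 24 falls with siRNA 2, so the surplus of rises with siRNA 2 was not seen there. The median of all genes stood at -0.05 and -0.03 on that scale. With both siRNAs 17 members rose and 7 fell, beside 7.69% rising and 4.25% falling of all genes and 10.8% and 5.63% of the protein-coding genes at 3 TPM or more, and the log2(TPM + 1) scale gave 7 rises and 10 falls. With the library name prefix in the model, siRNA 1 gave 76 calls in place of 42 and the shared count was 40 in place of 24. Without the third siRNA 2 library (SETD3 in its column name), siRNA 2 gave 37 rises and 20 falls and the shared count was 16. The siRNA 1 count was 23 without control 2, and 26 without control 3, without siRNA 1 library 1 or without siRNA 1 library 2. The shared count was 15 without control 2.

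Among KRAB members 10 rose and 7 fell with siRNA 1 in myoblasts (7.87% and 5.51%) and 25 rose and 10 fell with siRNA 2 (19.7% and 7.87%). Among members without a box 10 rose and 15 fell with siRNA 1 (9.26% and 13.9%) and 21 rose and 15 fell with siRNA 2 (19.4% and 13.9%). Of all genes 11.6% rose and 8.44% fell with siRNA 1, and 17.1% rose and 16.5% fell with siRNA 2. Of the protein-coding genes at 3 TPM or more these shares were 16.3% and 10.9%, and 22.7% and 22%. KRAB rises were thus fewer than either background with siRNA 1 and lay between them with siRNA 2. The KRAB counts were 3 rises and 12 falls with siRNA 1 and 11 rises and 10 falls with siRNA 2 on the log2(TPM + 1) scale, so their direction with siRNA 1 depended on the scale. The median of all genes on that scale was -0.05 with siRNA 1 and -0.03 with siRNA 2. Without control 2 the rises were 6 with siRNA 1 and 16 with siRNA 2, the siRNA 1 falls were 2 without control 2, control 3 or siRNA 1 library 2, and the siRNA 2 falls were 6 without siRNA 2 library 3. The siRNA 1 falls of members without a box were 5 to 9 without control 2, control 3, siRNA 1 library 1 or siRNA 1 library 2. Of the 30 corepressor genes 5 were higher and 4 lower with siRNA 1 and 9 higher and 9 lower with siRNA 2 (30% each, beside 22.7% and 22% of the protein-coding genes at 3 TPM or more), the siRNA 1 rises being 2 or 3 without control 2, control 3, siRNA 1 library 1 or siRNA 1 library 2. Trim28 was not called (-0.06 and -0.10). Smarcad1, a remodeller that works with Trim28, was the largest change of the list at 0.81 ± 0.04 with siRNA 1 and 0.78 ± 0.04 with siRNA 2, from means of 62.6 and 61.3 CPM against 35.9 CPM in control myoblasts.

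The strongest Zfp response in myoblasts was the rise of Zfp51, a KRAB gene of chromosome 17. It was at 12.8, 12.6 and 12.6 CPM with siRNA 1 and 13.8, 13.8 and 13.5 CPM with siRNA 2, against 8.19, 8.07 and 8.26 CPM in control myoblasts (0.64 ± 0.05, adjusted p = 4.69e-06, and 0.75 ± 0.05, adjusted p = 4.49e-07, edgeR). All 6 depleted libraries lay above all controls. Zfp40, also a KRAB gene of chromosome 17, was at 8.84, 7.85 and 7.81 CPM with siRNA 1 and 9.14, 8.04 and 8 CPM with siRNA 2, against 5.65, 5.98 and 5.51 CPM in control myoblasts (0.52 ± 0.08, adjusted p = 0.000855, and 0.56 ± 0.08, adjusted p = 0.000227, edgeR). Zfp449, which has no KRAB box, was at 12.7, 12.7 and 11 CPM with siRNA 1 and 13.4, 12.2 and 11.6 CPM with siRNA 2, against 9.27, 8.20 and 8.35 CPM in control myoblasts (0.50 ± 0.08, adjusted p = 0.00114, and 0.53 ± 0.08, adjusted p = 0.000348, edgeR). For both genes the groups did not overlap, and the calls of all 3 genes held under all alternatives run. Zfp229 was at 0.35 ± 0.07 and 0.57 ± 0.07, likewise held. Zfp719 was at 0.40 ± 0.06 and 0.51 ± 0.06, where the siRNA 1 call was lost on the log2(TPM + 1) scale (adjusted p = 0.204, limma). The other shared rises were Zfp52, Zfp54, Zfp57, Zfp180, Zfp236, Zfp362, Zfp605, Zfp704 and Zfp825, between 0.15 and 0.59. Among them, Zfp54 passed the limit of 3 TPM through its depleted myoblast levels, so its direction is in part set by the rule.

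Falls shared by the siRNAs in myoblasts were fewer. Zfp503, the closest relative of Zfp703, was at 23.7, 25.8 and 22 CPM with siRNA 1 and 26, 24.5 and 24.7 CPM with siRNA 2, against 30.9, 30.5 and 28.4 CPM in control myoblasts (-0.32 ± 0.06, adjusted p = 0.00278, and -0.25 ± 0.06, adjusted p = 0.00711, edgeR). Zfp770 was at 29.7, 27.5 and 26.2 CPM with siRNA 1 and 29.5, 27.7 and 28.4 CPM with siRNA 2, against 32.7, 32.8 and 34.1 CPM in control myoblasts (-0.25 ± 0.05, adjusted p = 0.00395, and -0.21 ± 0.05, adjusted p = 0.00586, edgeR). In both genes all depleted libraries were below all controls, and the calls held under all alternatives run. The other 5 shared falls were Zfp365, Zfp369, Zfp26, Zfp146 and Zfp821, of which each lost at least 1 of its calls under some alternative.

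Called higher in all 4 depletion comparisons were 3 members, Zfp651, Zfp106 and Zfp346, and 0 were called lower in all 4. The share of all genes called in all 4 was not counted, so these numbers are a description. Zfp651 was at 67.0, 73.7 and 71 CPM with siRNA 1 and 70.5, 74.5 and 69.8 CPM with siRNA 2, against 60.6, 60.7 and 60.6 CPM in control myotubes. In myoblasts it was at 16.2, 16.4 and 18.5 CPM with siRNA 1 and 15.9, 17.4 and 18.6 CPM with siRNA 2, against 12.6, 14 and 12.5 CPM in control myoblasts. Every depleted library was above every control of its stage (0.22 ± 0.04 and 0.24 ± 0.04 in myotubes, 0.39 ± 0.07 and 0.42 ± 0.07 in myoblasts, adjusted p from 0.000535 to 0.0025, edgeR).

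Zfp106 was at 1170, 1210 and 1240 CPM with siRNA 1 and 1220, 1290 and 1310 CPM with siRNA 2, against 1070, 1100 and 967 CPM in control myotubes (0.21 ± 0.05, adjusted p = 0.00944, and 0.28 ± 0.05, adjusted p = 0.000921, edgeR). In myoblasts it was at 422, 427 and 438 CPM with siRNA 1 and 429, 430 and 441 CPM with siRNA 2, against 369, 378 and 375 CPM in control myoblasts (0.20 ± 0.03, adjusted p = 0.000147, and 0.22 ± 0.03, adjusted p = 3.46e-05, edgeR). The depleted libraries again lay above all controls, and the calls of Zfp651 and Zfp106 held under all alternatives run.

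Zfp346 was at 93.6, 94.9 and 93.5 CPM with siRNA 1 and 85.3, 91.3 and 89 CPM with siRNA 2, against 70.8, 72.3 and 68.6 CPM in control myotubes (0.42 ± 0.03, adjusted p = 1.84e-05, and 0.33 ± 0.03, adjusted p = 2.66e-05, edgeR). In myoblasts it was at 50.5, 50.5 and 46.2 CPM with siRNA 1 and 52.2, 46.1 and 49.7 CPM with siRNA 2, against 43.8, 42 and 39.4 CPM in control myoblasts (0.24 ± 0.06, adjusted p = 0.0114, and 0.25 ± 0.06, adjusted p = 0.00497, edgeR). The groups were apart in both stages. The myoblast calls were the weaker ones: that of siRNA 1 was lost without siRNA 1 library 1 or 2, without control 3 and on the log2(TPM + 1) scale (adjusted p up to 0.289, edgeR or limma), and that of siRNA 2 on that scale only (adjusted p = 0.089, limma).

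**Figure D4:**
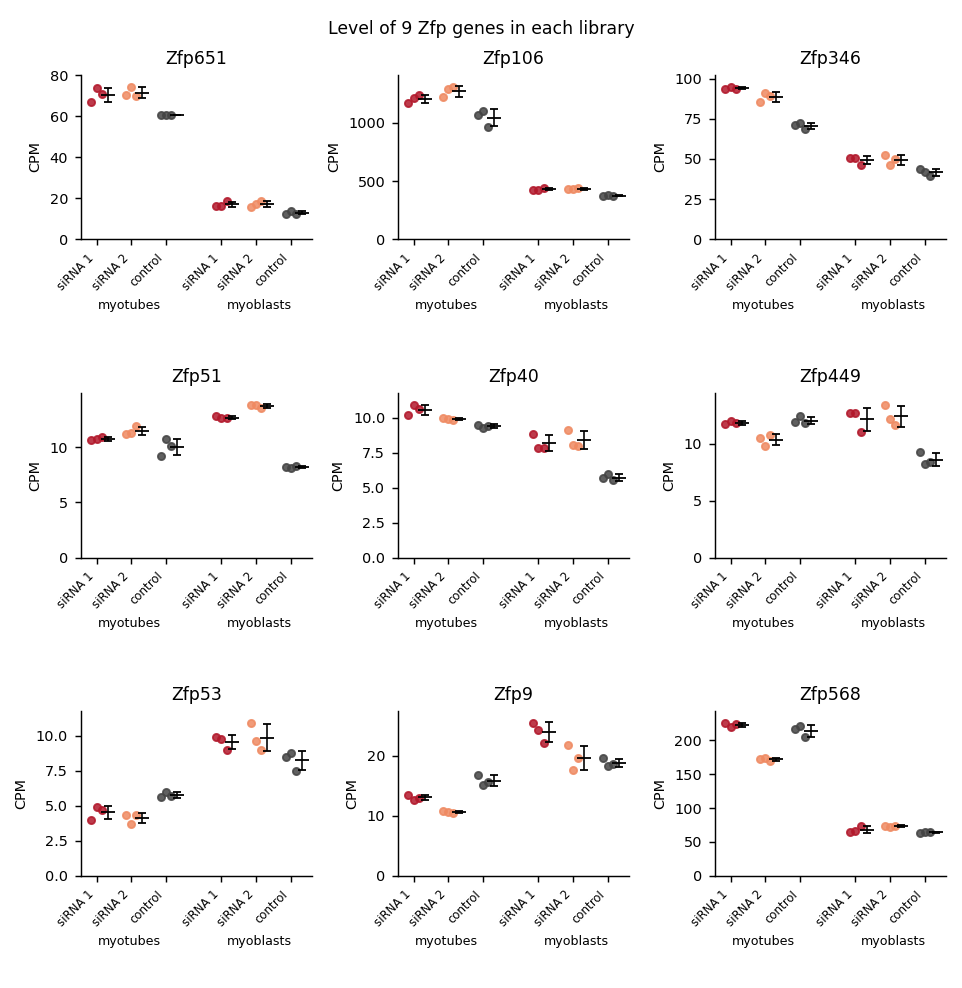
CPM of 9 Zfp genes in each library (dots), with the mean and SD beside them (n = 3), for siRNA 1, siRNA 2 and control in myotubes and then in myoblasts. Zfp651, Zfp106 and Zfp346 lie above their controls in both stages; in myoblasts Zfp51, Zfp40 and Zfp449 lie above their controls, and in myotubes Zfp53 and Zfp9 lie below theirs.

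The difference of the depletion effect between the stages was tested directly, as the effect in myotubes minus that in myoblasts, averaged over the siRNAs. It was called for 53 members, positive for 13 and negative for 40 (5.53% and 17%), beside 10.6% and 12.8% of all 16930 genes. Of the protein-coding genes at 3 TPM or more, 15% were positive and 18.3% negative, so the share of negatives was near theirs and positives were fewer. The median was -0.06. On the log2(TPM + 1) scale the split was 8 positive and 26 negative. Among KRAB members 3 were positive and 29 negative (22.8% negative, median -0.11), and among members without a box 10 were positive and 11 negative (median 0.00); on the log2(TPM + 1) scale the KRAB split was 1 and 18. The KRAB negatives numbered 20 to 27 when 1 library was left out.

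The largest stage differences were in members already described. Zfp53 had a difference of -0.66 ± 0.12 (adjusted p = 0.000312, edgeR), from its fall in myotubes beside 9.95, 9.77 and 8.96 CPM with siRNA 1 and 10.9, 9.65 and 9.01 CPM with siRNA 2, against 8.52, 8.77 and 7.47 CPM in control myoblasts. Zfp9 had -0.63 (adjusted p = 1.77e-05, edgeR), and its myoblast levels were 25.4, 24.2 and 22.1 CPM with siRNA 1 and 21.7, 17.6 and 19.6 CPM with siRNA 2, against 19.6, 18.3 and 18.6 CPM in control myoblasts. All depleted myoblast libraries were above the controls for Zfp53, and for Zfp9 those of siRNA 1 were, while those of siRNA 2 overlapped them. Zfp449 had -0.63 ± 0.09 (adjusted p = 2.58e-05, edgeR), with 11.7, 12 and 11.8 CPM with siRNA 1 and 10.5, 9.80 and 10.8 CPM with siRNA 2, against 11.9, 12.4 and 11.8 CPM in control myotubes. Zfp719 followed at -0.58 ± 0.08. These 4 calls held under all alternatives run.

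Zfp57, the KRAB protein that keeps imprinted DNA methylation, also differed between the stages. It was at 19.2, 18.2 and 19.3 CPM with siRNA 1 and 14.8, 17.1 and 20.2 CPM with siRNA 2, against 20.7, 24.9 and 22.2 CPM in control myotubes. In myoblasts it was at 22, 22.1 and 20.7 CPM with siRNA 1 and 21.2, 21.9 and 22.2 CPM with siRNA 2, against 19.2, 18.6 and 18.8 CPM in control myoblasts. Depleted libraries were thus all below controls in myotubes and all above them in myoblasts, and the stage difference of -0.52 ± 0.10 held under all alternatives run (adjusted p = 0.000645, edgeR). Within myotubes alone the siRNA 1 value of -0.26 was not called (adjusted p = 0.0998, edgeR) and the siRNA 2 call at -0.38 was lost without control 2 or siRNA 2 library 2 (adjusted p up to 0.0687, edgeR). Its myoblast call of 0.20 with siRNA 1 was lost without control 2 and on the log2(TPM + 1) scale (adjusted p up to 0.0943, edgeR or limma), and that of 0.21 with siRNA 2 held. Zfp445, another KRAB protein that keeps imprints, was called in siRNA 2 myoblasts, at -0.13 ± 0.04, and not in the other 3 depletion comparisons; the call was lost without control 3, siRNA 2 library 2 or siRNA 2 library 3 (adjusted p up to 0.0844, edgeR). The retroviral silencer Zfp809 was called in none of the 4 comparisons.

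The siRNAs were also set against each other. In myotubes 12 members were higher and 10 lower with siRNA 2 than with siRNA 1 (5.11% and 4.26%). Beside them were 7.76% and 9.36% of all genes and 9.18% and 12.5% of the protein-coding genes at 3 TPM or more. The total of 22 was 13 on the log2(TPM + 1) scale and 14 without siRNA 2 library 3. In myoblasts 39 were higher and 17 lower, or 16.6% and 7.23% of the members, beside 12.1% and 14.3% of all genes. Of the protein-coding genes at 3 TPM or more 15.7% were higher and 20% lower, so the share of higher members was near theirs. That total of 56 was 88 with the library name prefix in the model and 32 on the log2(TPM + 1) scale. Zfp568 gave the largest difference in myotubes. It was at 172, 174 and 169 CPM with siRNA 2 and 225, 219 and 224 CPM with siRNA 1, where control myotubes had 216, 221 and 204 CPM. The siRNA 2 libraries were below all others, with -0.38 ± 0.04 between the siRNAs (adjusted p = 3.9e-05, edgeR) and -0.32 ± 0.04 against control (adjusted p = 5.5e-05, edgeR). In myoblasts Zfp281 was at 62.8, 65.4 and 62.8 CPM with siRNA 2 and 48.9, 47.2 and 49.8 CPM with siRNA 1, where control myoblasts had 50.7, 52.9 and 51.6 CPM (0.39 ± 0.03, adjusted p = 5.1e-06, edgeR). Zfp36 was at 17.4, 20 and 18.5 CPM with siRNA 2 and 13.4, 13.6 and 15.6 CPM with siRNA 1, where control myoblasts had 14.2, 16.5 and 14.5 CPM. In each of these 3 genes the siRNA 2 libraries stood apart from all others of the stage, and the call between the siRNAs held under all alternatives run.

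Many members sit in tandem arrays, and 34 lay in 3 clusters of at least 8 members whose starts were within 250 kb of the next. On chromosome 7 a cluster of 12 members reaches from Zfp84 to Zfp146 (chr7:29768552-30169750, GRCm38, 0.40 Mb), and 9 of them have a KRAB box. Of the 12, 9 were higher and 2 lower in control myotubes than in control myoblasts, with a median log2 fold change of 0.73. These are 75% and 16.7% of the cluster, beside 39.4% and 38.1% of all genes. Of the protein-coding genes at 3 TPM or more 40.9% rose and 45.9% fell. Zfp568 and Zfp30 led the rises at 1.73 and 1.69, Zfp382 and Zfp146 fell by 0.83 and 0.26, and Zfp566 between them was not called at 0.13. Zfp30 was at 1.75 to 1.82 TPM in control myoblasts and 5.55 to 6.17 TPM in control myotubes. It passed the limit of 3 TPM through its myotube level, and others of the 9 may have done so too. The count of rises is thus in part set by the rule. The split of 9 and 2 was the same when any 1 library was left out and on the log2(TPM + 1) scale. With siRNA 2, 0 of the 12 rose and 4 (33.3%) fell in myotubes, beside 16.4% of all genes falling, and 4 (33.3%) rose and 1 fell in myoblasts, beside 17.1% rising. The stage difference was negative for 5 (41.7%, beside 12.8% of all genes) and positive for 0. Of the protein-coding genes at 3 TPM or more, 21.6% fell in siRNA 2 myotubes, 22.7% rose in siRNA 2 myoblasts and 18.3% had a negative stage difference. Without control 2 of the myoblasts the siRNA 2 rises were 2, and the negative stage differences were 3 without control 2 or 3 of the myoblasts or control 3 of the myotubes. On the log2(TPM + 1) scale those splits were 0 and 5, 1 and 1, and 0 and 2.

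On chromosome 17 a cluster of 14 members reaches from Zfp54 to Zfp946 (chr17:21423227-22456689, GRCm38, 1.03 Mb), and all 14 have a KRAB box. On differentiation 7 were higher and 6 lower (50% and 42.9%), beside 40.9% and 45.9% of the protein-coding genes at 3 TPM or more. In myoblasts 4 (28.6%) rose and 0 fell with siRNA 1, and 6 (42.9%) rose and 0 fell with siRNA 2, beside 11.6% and 17.1% of all genes rising. Of those protein-coding genes 16.3% and 22.7% rose. In siRNA 2 myotubes 1 rose and 3 fell (7.14% and 21.4%), beside 15.8% and 16.4% of all genes and 19.1% and 21.6% of those protein-coding genes. The 4 that rose with each siRNA were Zfp54, Zfp51, Zfp52 and Zfp229, which lie among the first 6 genes of the array. Of these, Zfp54 was at 2.46, 3.42 and 2.77 TPM in control myoblasts and 2.38 to 3.07 TPM in the myotube libraries. It passed the limit of 3 TPM through its 2.95 to 4.4 TPM in depleted myoblasts. The count of rises is therefore in part set by the rule. Zfp229 was at 10.3, 9.28 and 8.79 CPM with siRNA 1 and 11.7, 10.5 and 10.7 CPM with siRNA 2, against 7.39, 7.56 and 7.38 CPM in control myoblasts. Its depleted libraries were all above its controls. Counts of rises were 3 to 4 with siRNA 1 and 4 to 6 with siRNA 2 when 1 library was left out, and 2 and 3 on the log2(TPM + 1) scale. The stage difference was negative for 6 (42.9%) and positive for 0, beside negatives in 12.8% of all genes and 18.3% of the protein-coding genes at 3 TPM or more. It was negative for 3 without control 1 or siRNA 1 library 1 of the myoblasts or control 2 of the myotubes. The siRNA 2 falls in myotubes were 1 without control 2, control 3, siRNA 2 library 2 or siRNA 2 library 3. A further cluster of 8 members on chromosome 17, from Zfp871 to Zfp101 (chr17:32765496-33394641, GRCm38, 0.63 Mb), had 4 rises and 3 falls on differentiation (50% and 37.5%). It had 2 rises (25%) with siRNA 2 in myoblasts, beside 17.1% of all genes and 22.7% of the protein-coding genes at 3 TPM or more. The other depletion comparisons gave 0 calls. Members of a cluster share sequence, so reads may be divided among them in part by the authors' quantifier.

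**Figure D5:**
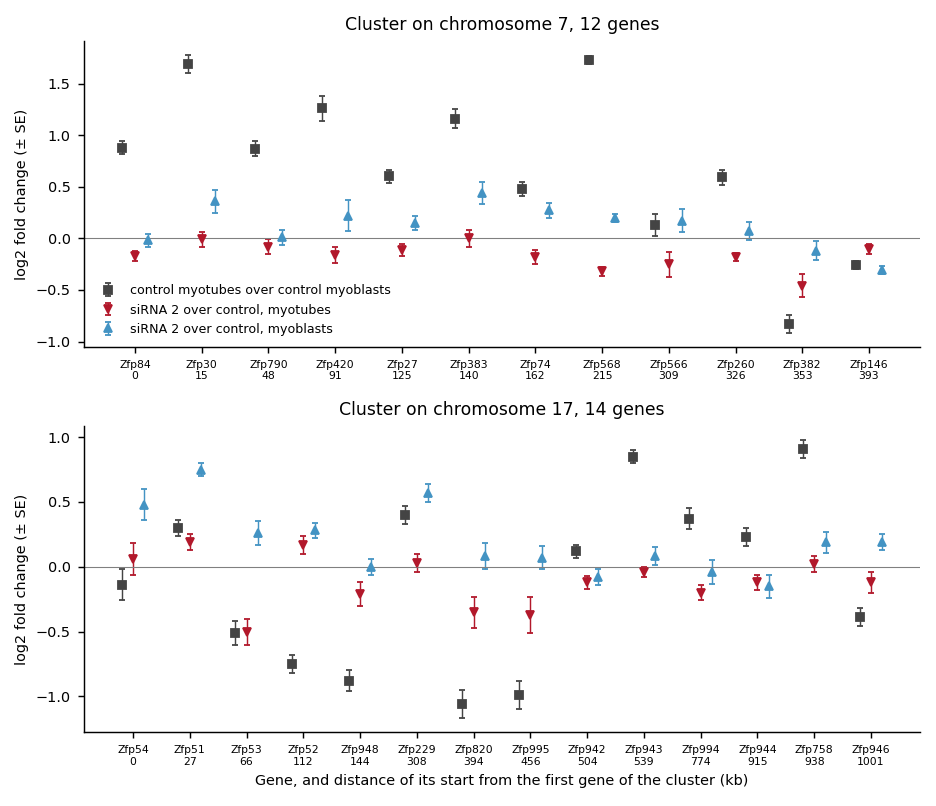
Log2 fold change with SE of each gene of the chromosome 7 cluster (upper panel) and of the 14-gene chromosome 17 cluster (lower panel), placed by order along the chromosome with the distance of each start from the first gene in kb. Squares give control myotubes over control myoblasts, down-pointing triangles siRNA 2 over control in myotubes and up-pointing triangles siRNA 2 over control in myoblasts; on chromosome 7 Zfp568 stands at 1.73 on differentiation, and on chromosome 17 Zfp51 stands at 0.75 in siRNA 2 myoblasts.

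The role lists were also counted under depletion. Among the 9 RNA-binding or ribosome-associated members, 3 rose and 0 fell with siRNA 1 and 3 rose and 1 fell with siRNA 2 in myotubes, where Zfp106, Zfp346 and Zfp622 were the rises. In myoblasts 2 rose and 0 fell with siRNA 1 and 5 rose and 0 fell with siRNA 2. Rises were thus 33.3% of the list with each siRNA in myotubes, beside 11% and 15.8% of all genes, and 22.2% and 55.6% in myoblasts, beside 11.6% and 17.1%. Of the protein-coding genes at 3 TPM or more, 14.1% and 19.1% rose in myotubes and 16.3% and 22.7% in myoblasts. Zfp326 was lower with siRNA 2 in myotubes (-0.20 ± 0.05) and higher with siRNA 2 in myoblasts (0.14 ± 0.04), and both calls were lost when 1 library was left out (adjusted p up to 0.0512 and 0.059, edgeR, without siRNA 2 library 2 in myotubes, and without control 1, control 2 or siRNA 2 library 3 in myoblasts). Among the 23 transcription and chromatin members, 0 rose and 5 fell with siRNA 1 and 2 rose and 4 fell with siRNA 2 in myotubes. In myoblasts 1 rose and 5 fell with siRNA 1 and 4 rose and 3 fell with siRNA 2. The falls were 21.7% and 17.4% in myotubes, beside 9.57% and 16.4% of all genes, and 21.7% and 13% in myoblasts, beside 8.44% and 16.5%. Of the protein-coding genes at 3 TPM or more, 12.2% and 21.6% fell in myotubes and 10.9% and 22% in myoblasts. Against these, falls in the list were more with siRNA 1 and fewer with siRNA 2 in each stage. Zfp703 was at 74.6, 62.9 and 58.7 CPM with siRNA 2 and 51.6, 50.2 and 50.8 CPM with siRNA 1, against 47, 47 and 52 CPM in control myotubes. The siRNA 2 libraries stood above all others (0.43 ± 0.08 over control, adjusted p = 0.00421, edgeR), and the siRNA 1 libraries overlapped the controls.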

How the data were processed

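Deposited tables gave estimated counts and TPM per transcript for each of the 18 libraries, per the file headers; both were made by the authors, and neither the quantifier nor its annotation is stated in the labels or headers. The submitters' processing notes name mm10 and DESeq2, with no role. Of 115088 transcripts, 114200 matched GENCODE M21 (GRCm38), and the rest, 0.16% to 0.24% of counts, were left out. Deposited estimated counts were summed per gene and rounded; deposited TPM were summed. No column was left unassigned (0 columns).

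Genes were filtered with filterByExpr (minimum count 10), scaled by TMM and tested with edgeR 4.0.16 in R 4.3.3 (quasi-likelihood F test, Benjamini-Hochberg adjustment over all genes tested, called at an adjusted p under 0.05), in 1 fit per stage for depletion (6 residual degrees of freedom) and 1 fit of all libraries for differentiation and the stage difference (12). SEs were derived from the F statistic. Depth was 43544308 to 66615342 counts, and reads are not molecules, so depth precision covers counting error only. Alternatives were relative log expression size factors, no filter, DESeq2 1.42.0, limma 3.58.1 on log2(TPM + 1), the prefix of the library names as a term (its meaning is not given), a replicate block, and each library left out. The edgeR fits were tested on simulated counts, with 1 comparison per fit. The other steps and the alternatives were not tested on simulated data.

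KRAB boxes were found in GENCODE translations with a profile built by pyhmmer 0.12.3 from 68 members that matched a KRAB pattern and searched again at E under 0.001. The finger pattern was C, 2 to 4 residues, C, 12 residues, H, 3 to 5 residues, H. Clusters held at least 8 members with starts within 250 kb of the next. Figures were drawn with matplotlib 3.10.9 in Python 3.11.15.

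The members, the lists and the tests were chosen with earlier results of these data known. Named genes were the 8 most abundant, the 8 largest rises and falls on differentiation with groups that did not overlap, the members called the same way with each siRNA (the 8 largest in each direction where there were more), the 4 largest stage and siRNA differences, the 3 nearest the limit on each side, and the role lists; other names in lists and clusters were chosen after their values were seen. Same-numbered libraries deviated together in 7 of 9 pairs of libraries in each stage (correlations from -0.549 to 0.716 in myoblasts and -0.345 to 0.426 in myotubes). The negative pairs held siRNA 1 library 2 in myoblasts and control 3 in myotubes, whose name prefix differs from that of the libraries with the same number. As not every pair was over 0.1, replicate numbers were not taken as pairs. No 2 libraries were duplicates.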

Additional observations from a re-analysis of the deposited data

Results flagged for a closer look

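The test of the difference itself, the mean effect of the siRNAs in myotubes minus that in myoblasts, was called for 53 members at an adjusted p under 0.05 (edgeR). Among the genes described by name the negative differences, on the log2 scale, were -0.66 for Zfp53, -0.63 for Zfp449, -0.63 for Zfp9, -0.58 for Zfp719, -0.55 for Zfp51, -0.52 for Zfp57, -0.42 for Zfp157, -0.41 for Zfp40 and -0.40 for Zfp229. Smaller negative differences were -0.33 for Zfp41, -0.26 for Zfp568, -0.23 for Zfp90 and -0.18 for Zfp326. The positive ones were 0.16 for Zfp369, 0.20 for Zfp46, 0.26 for Zfp770, 0.28 for Zfp318, 0.29 for Zfp622, 0.35 for Zfp703 and 0.37 for Zfp365. On the log2(TPM + 1) scale the calls of Zfp40, Zfp318 and Zfp365 were lost, and those of Zfp46, Zfp90, Zfp326 and Zfp369 were lost when at least 1 of the libraries was left out.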

How the results depend on the processing

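Of 217 calls of named genes, 129 held under all alternatives run and 0 changed sign; 438 of 3899 recomputed values missed the threshold. Counts of called members moved by over 1.5 times in the following settings, and the cause was not tested. With the library name prefix in the model, 76 members were called with siRNA 1 in myoblasts, 40 the same way with each siRNA in myoblasts, and 88 between the siRNAs in myoblasts. On the log2(TPM + 1) scale, 32 were called between the siRNAs in myoblasts, 13 between the siRNAs in myotubes and 34 for the stage difference. With DESeq2, 11 were called the same way with each siRNA in myotubes. The prefix could not be fitted for control differentiation.

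With 1 library left out, counts ranged from 12 to 35 for siRNA 1 and 38 to 68 for siRNA 2 in myotubes, 8 to 22 for calls shared by the siRNAs in myotubes, 23 to 52 for siRNA 1 and 53 to 77 for siRNA 2 in myoblasts, and 15 to 25 for calls shared in myoblasts. They ranged from 176 to 188 for differentiation, 39 to 56 for the stage difference, and 14 to 26 in myotubes and 38 to 56 in myoblasts between the siRNAs. The lowest count between the siRNAs in myotubes was without siRNA 2 library 3.

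With the replicate number as a block, 29 and 65 members were called with siRNA 1 and siRNA 2 in myotubes, 63 and 84 in myoblasts, 20 and 34 shared in myotubes and in myoblasts, 184 for differentiation, 53 for the stage difference, and 24 and 74 between the siRNAs in myotubes and in myoblasts. No count moved by over 1.5 times under the block. In each stage a library was matched to its best correlate in each of the other groups, and 11 of 18 such matches had its own number, which is a hint from the data and not from the design.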
